A study of Mus musculus with 2 samples.

Results

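The D cyclins (Ccnd1, Ccnd2 and Ccnd3), the kinases they activate (Cdk4 and Cdk6) and 5 inhibitors of these kinases (Cdkn1a, Cdkn1b, Cdkn1c, Cdkn2a and Cdkn2c) were read out in single cells of mouse pancreatic islets. They are 10 of the 31053 genes in the count tables and were chosen by name, with earlier results of these data known. All 10 had UMIs in β-like cells of both libraries. By transcript counts, Ccnd2 was the main D cyclin of islet β cells and Cdk4 made up nearly all of its kinase. Cdkn1a was 21.1 to 83.1 times higher in endothelial, pericyte, ductal and macrophage cells than in β cells, Cdkn1c was highest in fibroblasts, and Cdkn2c was 19.5 times higher in the 14 β cells with several mitotic transcripts than in the others.

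D cyclins couple growth signals to cell division. They bind Cdk4 or Cdk6, and the active kinase phosphorylates the retinoblastoma protein, which releases E2F factors and lets a cell pass from G1 into S phase. The Cip/Kip inhibitors (p21 from Cdkn1a, p27 from Cdkn1b and p57 from Cdkn1c) act on several cyclin and kinase complexes, whereas INK4 inhibitors (p16Ink4a from Cdkn2a and p18Ink4c from Cdkn2c) bind Cdk4 and Cdk6 alone. In mice, Ccnd2 and Cdk4 are known to be needed for growth of β cell mass after birth, Cdkn2a rises in islets with age, and adult β cells rarely divide.

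Both groups were male C57/B6 mice aged 16 weeks. The wild-type (WT) mice had no diet named in their labels, and the methods of the study give standard chow for mice that did not eat the high-fat diet. The high-fat diet (HFD) mice ate, from an age of 6 weeks and over 10 weeks, a diet in which fat gave 60% of the kcal. Each library came from islets of 4 mice that had been mixed, so single mice could not be told apart. With 1 library per group, groups were compared without a test or a p-value. Diet, islet preparation and library cannot be told apart, and all intervals are 95% intervals that cover counting error only.

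Counts were unique molecular identifiers (UMIs), 1 for each captured transcript, read from the 3′ end, so levels of different genes can be set side by side without dividing by length. Levels are UMIs per 1000000 UMIs of the same cells (CPM). Filters kept 2493 cells of WT and 6673 of HFD, whose median UMIs were 23997 and 10925. Of these, 1919 WT cells and 5852 HFD cells were β-like, with insulin transcripts making up 60.3% and 56.8% of their UMIs. The next largest classes in both libraries together were endothelial-like (109 WT and 132 HFD cells), α-like (60 and 164), δ-like (50 and 116), T-like (1 and 161), γ-like (25 and 75), ductal-like (58 and 35), macrophage-like (40 and 45), fibroblast-like (59 and 23) and pericyte-like (18 and 15), and 130 WT and 32 HFD cells stayed unnamed. The 2 libraries shared 9 barcode sequences. A class was named from marker genes, and classes of fewer than 10 cells were left out of any order of levels.

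Ccnd2 (ENSMUSG00000000184, GRCm38 chromosome 6, 127125162 to 127152193, minus strand) was the main D cyclin of every endocrine class. It stood at 475 CPM in WT β-like cells and 404 CPM in HFD β-like cells and made up 83.0% (82.6% to 83.4%) and 78.5% (78.1% to 78.9%) of their D cyclin UMIs. Its share of D cyclin UMIs was 82.1% and 84.2% in α-like cells, 75.5% and 75.4% in δ-like cells, and 77.8% and 79.6% in γ-like cells (WT and HFD). α-like cells had more Ccnd2 than β-like cells in both libraries, at 610.1 (563 to 660.1) and 673.5 CPM (619.6 to 731) in WT and HFD. Pericyte-like cells of WT had a similar level, at 679.5 CPM (571 to 803). RNA of β-like cells carried over in proportion to insulin would give α-like cells 95.4 CPM in WT and 32.7 CPM in HFD. A Ccnd2 UMI was found in 97.7% of WT and 95.4% of HFD β-like cells, and in cells thinned to 2000 UMIs the counts spread little more than random draws, with a variance to mean ratio of 1.14 in WT and 1.12 in HFD.

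Ccnd1 (ENSMUSG00000070348, chromosome 7, 144929931 to 144939925, minus strand) was the second D cyclin of β-like cells, with 83.0 and 91.5 CPM in WT and HFD. It was highest in ductal-like cells, with 301 CPM (268.5 to 337) in WT and 371 CPM (296 to 458) in HFD, and stood at 266 and 322 CPM in endothelial-like cells. The intervals of these 2 classes overlapped in each library, and both lay above those of the endocrine classes. In ductal-like cells Ccnd1 and Ccnd2 were near each other, with Ccnd1 at 43.5% of D cyclin UMIs in WT and 55.2% in HFD. The 161 HFD T-like cells had 1 Ccnd1 UMI, or 3.21 CPM, against 2.96 CPM that carried-over β-like RNA would give, whereas their Ccnd2 level was 180.0 CPM (136 to 233.7) and made up 80% of their D cyclin UMIs (68.7% to 88.6%).

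Ccnd3 (ENSMUSG00000034165, chromosome 17, 47505051 to 47599691, plus strand) was the least abundant D cyclin of β-like cells, with 14.4 and 19.1 CPM in WT and HFD. It was highest in fibroblast-like cells, with 216 CPM (167 to 274) in WT and 169.9 CPM (73.3 to 335) in HFD, where it made up 42.1% of 159 D cyclin UMIs and 66.7% of 12. Endothelial-like cells had 130.4 and 111 CPM and pericyte-like cells 103 and 123 CPM, with overlapping intervals.

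**Figure D1:**
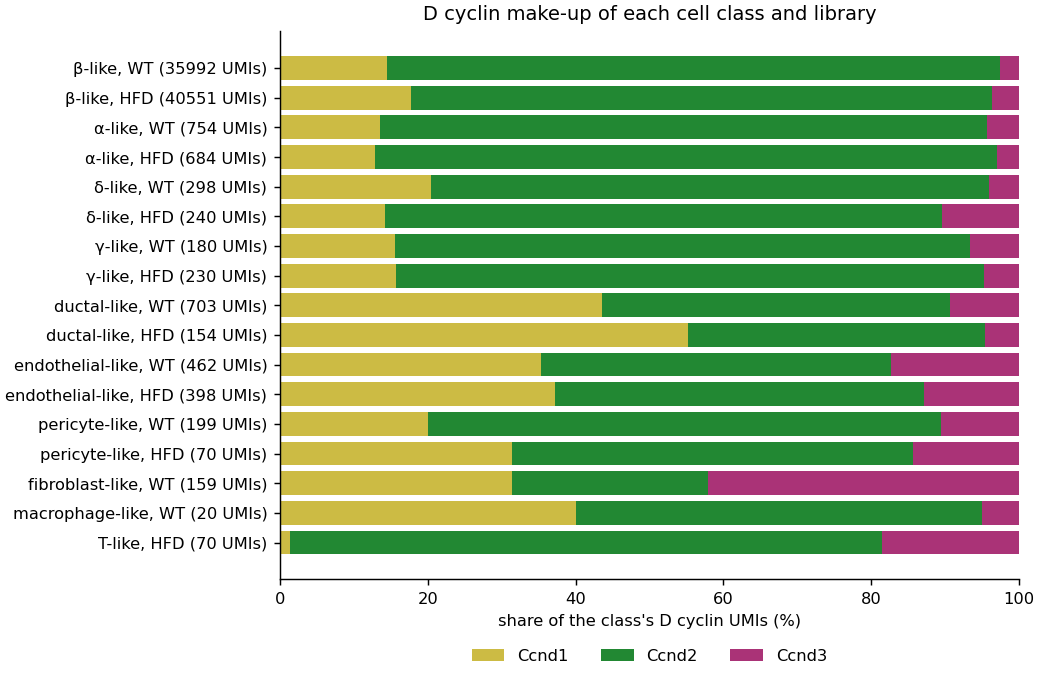
Share of D cyclin UMIs (%) that came from Ccnd1, Ccnd2 and Ccnd3 in each cell class and library with at least 20 such UMIs, with the number of UMIs beside each bar. Ccnd2 takes the larger part of the bar in all 8 endocrine bars, Ccnd1 widens in ductal-like and endothelial-like cells, and Ccnd3 is the widest part in WT fibroblast-like cells.

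Cdk4 (ENSMUSG00000006728, chromosome 10, 127063534 to 127067920, plus strand) had 47.7 and 50.8 CPM in β-like cells of WT and HFD. Cdk6 (ENSMUSG00000040274, chromosome 5, 3341485 to 3531008, plus strand) was at the edge of detection there, with 22 WT UMIs and 26 HFD UMIs, or 0.35 and 0.330 CPM. Cdk4 therefore made up 99.3% and 99.4% of the UMIs of both kinases. In α-like, δ-like and γ-like cells the same share was between 97.3% and 100%, with 2 Cdk6 UMIs in WT α-like cells and 0 in the other 5 groups of cells, although 0 UMIs allowed up to 8.07 CPM in the smallest of them.

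Cdk6 was highest in ductal-like and macrophage-like cells. In ductal-like cells it stood at 70.9 CPM (55.5 to 89.3) in WT and 26.2 CPM (9.60 to 56.9) in HFD, and it made up 31.9% and 26.1% of the kinase UMIs. In macrophage-like cells it stood at 53.7 and 87.1 CPM and was level with Cdk4, with 11 Cdk6 UMIs against 8 in WT and 8 against 7 in HFD. Against β-like cells of the same library, Cdk6 was 202.5 times higher (124 to 343) in WT ductal-like cells and 264 times higher (103 to 600.8) in HFD macrophage-like cells. From 3 or 4 UMIs each, WT pericyte-like cells had 14.8 CPM, WT fibroblast-like cells 12.9 CPM, HFD T-like cells 12.9 CPM and HFD endothelial-like cells 8.70 CPM, and the intervals of their ratios to β-like cells, 42.2 (8.09 to 140.5), 36.8 (9.23 to 108.5), 39.0 (9.89 to 112) and 26.4 (6.69 to 76.0), lay above 1.

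Cdkn1a (ENSMUSG00000023067, chromosome 17, 29090976 to 29100727, plus strand), the p21 gene and a classical target of p53, varied widely between classes. Endocrine classes were low, from 28.5 CPM in HFD β-like cells to 95.9 CPM in HFD α-like cells. Endothelial-like cells had 1649.7 CPM in WT and 1728 CPM in HFD, pericyte-like cells 2334 and 2369.6 CPM, ductal-like cells 1054 and 1949 CPM, and macrophage-like cells 825 and 621 CPM. Against β-like cells of the same library these 8 values were 21.1 to 83.1 times higher. Fibroblast-like cells lay between, with 209.5 CPM (162 to 267) in WT and 403 CPM (243 to 630.0) in HFD, or 5.36 times (4.12 to 6.86) and 14.1 times (8.50 to 22.1) the β-like level. T-like cells of HFD had 19.3 CPM (7.08 to 42.0), an interval that held the β-like level. A Cdkn1a UMI was found in 89.9% and 93.9% of endothelial-like cells and in 46.7% and 25.4% of β-like cells, which were deeper.

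Cdkn1b (ENSMUSG00000003031, chromosome 6, 134920401 to 134925513, plus strand) varied less between classes than Cdkn1a or Cdkn1c. It had 17.3 and 15.4 CPM in β-like cells of WT and HFD, and where another class had at least 25 Cdkn1b UMIs it ranged from 24.6 CPM in WT α-like cells to 48.9 CPM in WT endothelial-like cells. The ratio of WT endothelial-like to β-like cells was 2.82 (1.895 to 4.05), and that of WT α-like cells, 1.42 (0.916 to 2.11), held 1. With fewer UMIs, HFD T-like cells had 54.6 CPM, 3.545 times the β-like level (2.06 to 5.70), HFD ductal-like cells 52.3 CPM, 3.395 times (1.75 to 5.95), and the 13 HFD B-like cells 142 CPM from 5 UMIs, 9.23 times (2.99 to 21.6).

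Cdkn1c (ENSMUSG00000037664, chromosome 7, 143458339 to 143461050, minus strand), an imprinted gene, was highest in fibroblast-like cells, which had 425.5 CPM (356 to 504.6) in WT and 955.5 CPM (697 to 1278.5) in HFD. Pericyte-like cells had 88.6 and 74.05 CPM and endothelial-like cells 48.9 and 47.8 CPM. β-like cells had 60 UMIs in 1919 WT cells and 21 UMIs in 5852 HFD cells, or 0.955 and 0.266 CPM. The fibroblast-like level was 446 times the β-like level in WT (326 to 615). α-like cells of WT had 10 UMIs (9.86 CPM, 4.73 to 18.1) and those of HFD had 0, with an upper limit of 3.51 CPM.

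Cdkn2a (ENSMUSG00000044303, chromosome 4, 89274471 to 89294653, minus strand) encodes p16Ink4a and, from an upstream start and another reading frame, p19Arf. Both transcripts share their 3′ end, so these counts cannot separate them. β-like cells had 68 UMIs in 63 WT cells and 101 UMIs in 94 HFD cells, or 1.08 CPM (0.840 to 1.37) and 1.28 CPM (1.04 to 1.56). All other kept cells together had 6 UMIs, in 2 WT endothelial-like cells. That put WT endothelial-like cells at 9.78 CPM (3.59 to 21.3), 9.04 times the β-like level (3.21 to 20.7). HFD endothelial-like cells had 0 UMIs, with a limit of 6.52 CPM. The limit that 0 UMIs set in α-like cells was 2.96 CPM in WT and 3.51 CPM in HFD, above the β-like level, so these classes were too small to show whether β cells differed from them.

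Cdkn2c (ENSMUSG00000028551, chromosome 4, 109660876 to 109667189, minus strand) was the more abundant of these 2 INK4 genes in β-like cells, with 4.57 CPM (4.05 to 5.13) in WT and 5.96 CPM (5.435 to 6.53) in HFD. Fibroblast-like cells had 32.2 CPM (15.5 to 59.3) in WT, from 10 UMIs, and 84.9 CPM (23.1 to 217.5) in HFD, from 4. α-like cells had 6 and 3 UMIs, or 5.91 and 3.51 CPM.

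Few β-like cells held UMIs of several mitotic genes. A cell was counted as cycling when, after thinning to 2000 UMIs, it held UMIs of at least 2 of 10 G2/M phase genes (Mki67, Top2a, Cdk1, Ccna2, Ccnb1, Ccnb2, Birc5, Cenpf, Tpx2 and Ube2c). By this measure 5 of 1904 WT β-like cells (0.263%, 0.0853% to 0.612%) and 9 of 5839 HFD β-like cells (0.154%, 0.0705% to 0.292%) were cycling. The intervals overlapped. No member was used to pick these cells, and the measure was chosen after the data were seen.

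Cdkn2c stood far higher in the cycling β-like cells. It had 41 UMIs in 10 of the 14 cells, or 98.6 CPM (70.7 to 134), against 5.06 CPM (4.70 to 5.45) in the other 7729 β-like cells, a ratio of 19.5 (13.85 to 26.7). The cycling level was high in each library, at 84.4 CPM (52.2 to 129) in 5 WT cells against 4.25 CPM in the others, and at 119.7 CPM (73.1 to 185) in 9 HFD cells against 5.71 CPM. The UMIs per cell were 8, 9, 4, 0 and 0 in WT and 7, 1, 2, 0, 4, 1, 0, 4 and 1 in HFD, so each library had cells with many and cells with 0. Without the 3 cells whose Gcg, Sst, Ppy and Pyy UMIs passed 1% of their UMIs, the level was 99.1 CPM (65.9 to 143) in 11 cells. The WT cells with 9 and 4 UMIs were among those 3, with such hormones at 1.99% and 3.36%. Without them, the only WT Cdkn2c UMIs were the 8 of 1 cell that held 73404 UMIs.

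Cdkn2a was also higher in cycling cells, at 16.8 CPM (6.77 to 34.7) from 7 UMIs in 5 cells against 1.15 CPM, a ratio of 14.7 (5.81 to 30.9). WT cells gave 5 of these UMIs and HFD cells 2. Without the cells over 1% other hormones, 4 Cdkn2a UMIs remained in 11 cells, at 14.2 CPM (3.86 to 36.3). Among 11433 genes with at least 100 UMIs over cycling and other β-like cells together, 0.534% were at least 10 times higher in cycling cells. Of the 8 members with enough UMIs 2 were, Cdkn2a and Cdkn2c. Both limits were used for this comparison only and belong to a measure chosen after the data were seen. The genes compared include G2/M genes that picked the cells, such as Mki67 and Top2a, so the share is a description and not a test. Cdkn1a was 2.99 times higher (2.14 to 4.06), and stood at 137 CPM (94.6 to 191) in WT cycling cells against 38.7 CPM. In HFD cells it stood at 41.9 CPM (16.9 to 86.3) against 28.5 CPM, so its interval held the level of the other cells. Without the cells over 1% other hormones, Cdkn1a stood at 88.5 CPM (57.3 to 131) over both libraries, from 25 UMIs. Cdkn1b was 1.93 times higher (1.025 to 3.30), from 13 UMIs. Its cycling interval held the level of the other cells in each library. In WT it stood at 36.2 CPM (16.5 to 68.65) against 17.2 CPM, and in HFD at 23.9 CPM (6.52 to 61.3) against 15.4 CPM. The intervals of the D cyclins and Cdk4 held 1, with ratios of 1.32 (0.970 to 1.75) for Ccnd1, 0.889 (0.756 to 1.04) for Ccnd2, 0.565 (0.154 to 1.45) for Ccnd3 and 1.41 (0.945 to 2.03) for Cdk4. The 14 cells came from 2 libraries and are not replicates.

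**Figure D2:**
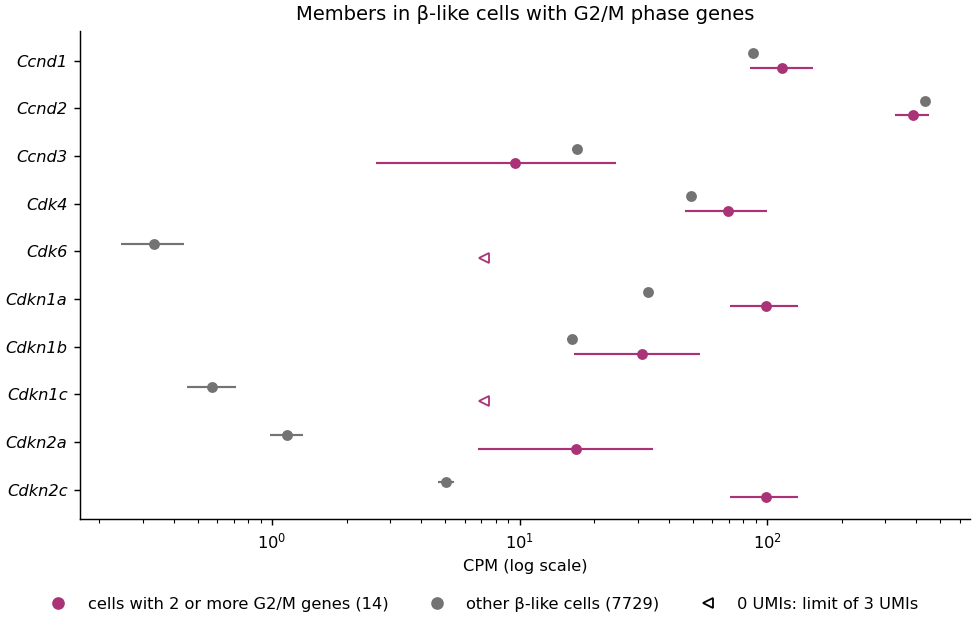
Level (CPM, log scale) of the 10 members in 14 β-like cells with UMIs of at least 2 G2/M genes (purple) and in 7729 other β-like cells (grey), both libraries pooled, with exact Poisson 95% intervals and open triangles at the limit of 3 UMIs where there were 0. Among members with UMIs in both sets of cells, Cdkn2c and Cdkn2a lie furthest to the right of their grey points, and Ccnd2 does not.

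Promoter sequences of these 2 INK4 genes are shown because they had the highest ratios in cycling cells, where E2F factors are known to be active. Promoters of 7 of the 10 members were matched by symbol in RefSeq (GRCm38.p6), and the 250 bases before each start were searched on both strands for the E2F letters TTTCCCGC, TTTGGCGC, TTTCGCGC and TTTGCCGC. Of all 32851 promoters of this length, 1.86% held one of them. Among the 11 promoters of the 7 members the only match was in the upstream Cdkn2a start, that of p19Arf, from base -99 to base -92, and it is in capitals. All sequences run 5′ to 3′ on the minus strand of chromosome 4, without bases that GENCODE M21 places in a UTR of the gene. They cover chr4:89294654-89294869 for the upstream Cdkn2a start, chr4:89282193-89282442 for the downstream Cdkn2a start of p16Ink4a, and chr4:109665373-109665609 for the downstream Cdkn2c start. The window of the upstream Cdkn2c start lies in a UTR over all its 250 bases and is not printed.
Cdkn2a upstream start: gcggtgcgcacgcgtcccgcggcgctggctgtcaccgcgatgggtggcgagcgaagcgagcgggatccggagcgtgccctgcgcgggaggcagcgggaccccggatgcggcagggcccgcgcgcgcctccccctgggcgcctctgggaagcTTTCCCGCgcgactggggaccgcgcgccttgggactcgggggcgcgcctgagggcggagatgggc
Cdkn2a downstream start: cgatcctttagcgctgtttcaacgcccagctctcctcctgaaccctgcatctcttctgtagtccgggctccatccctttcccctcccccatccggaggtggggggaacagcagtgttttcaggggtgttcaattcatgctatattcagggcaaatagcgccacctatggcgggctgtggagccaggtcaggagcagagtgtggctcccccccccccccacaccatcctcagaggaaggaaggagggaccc
Cdkn2c downstream start: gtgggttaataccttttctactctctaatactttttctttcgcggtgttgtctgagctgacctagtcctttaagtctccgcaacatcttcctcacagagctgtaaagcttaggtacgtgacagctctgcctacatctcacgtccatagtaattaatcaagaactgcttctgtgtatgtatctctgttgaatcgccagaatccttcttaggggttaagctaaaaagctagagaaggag
Over 250 bases the GC content was 78.4% and 60.0% for the upstream and downstream Cdkn2a starts and 77.2% and 42.8% for those of Cdkn2c. The RefSeq starts lay 34, 0, 433 and 0 bases from the nearest GENCODE start. A match is a description of letters only, and nothing was measured at these promoters.

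HFD and WT β-like cells were then compared. Across 13547 genes with at least 20 UMIs, 4.16% were at least 1.5 times higher in HFD and 8.2% at least 1.5 times lower. Of the 10 members 0 were that much higher and 1, Cdkn1c, was that much lower, so the members' counts were near the background. The median log2 ratio was 0.00 over the members and -0.03 over all genes tested.

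Among the D cyclins, Ccnd2 stood at 475 and 404 CPM in WT and HFD, a ratio of 0.850 (0.836 to 0.863), while Ccnd1 had a ratio of 1.10 (1.06 to 1.14) and Ccnd3 of 1.33 (1.22 to 1.44). All 3 ratios were under the 1.5-fold limit. The Ccnd2 share of D cyclin UMIs was 83.0% in WT and 78.5% in HFD, and that of Ccnd1 was 14.5% and 17.8%. The kinase Cdk4 had a ratio of 1.07 (1.02 to 1.12), and Cdk6, with 22 and 26 UMIs, had a ratio of 0.942 (0.5135 to 1.74).

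Among the inhibitors, Cdkn1c had the ratio farthest from 1, at 0.279 (0.161 to 0.4655), from 60 WT and 21 HFD UMIs. One WT cell held 7 of the 60 UMIs and also 134 UMIs of endothelial, fibroblast and pericyte markers. Without the 9 WT and 8 HFD β-like cells that held at least 10 such marker UMIs, 49 and 21 Cdkn1c UMIs remained and the ratio was 0.341. By their markers, carried-over RNA would give all WT β-like cells 0.129 CPM of Cdkn1c from fibroblasts, 0.0552 from pericytes and 0.0392 from endothelial cells. The measured level was 0.955 CPM. In HFD these estimates were 0.0450, 0.0135 and 0.0237 CPM, against 0.266 CPM measured. In the remaining cells the fibroblast estimate was 0.0231 CPM in WT and 0.00941 CPM in HFD, against 0.782 and 0.267 CPM measured. That estimate is low by design, because the same markers were used to leave cells out. Cdkn1a stood at 39.1 and 28.5 CPM, a ratio of 0.730 (0.689 to 0.773), and Cdkn1b had a ratio of 0.890 (0.819 to 0.966). Cdkn2c had a ratio of 1.31 (1.125 to 1.52) and Cdkn2a of 1.18 (0.862 to 1.635), an interval that held 1.

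**Figure D3:**
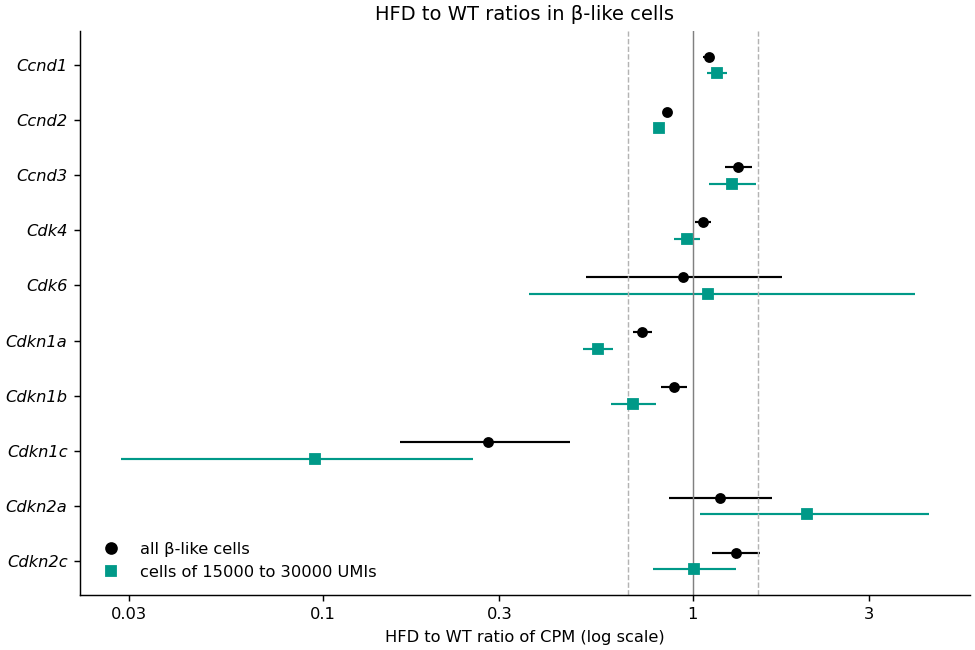
HFD to WT ratio of CPM (log scale) of each member in all β-like cells (black) and in β-like cells of 15000 to 30000 UMIs (green), with exact conditional 95% intervals; dashed lines mark 1.5-fold in either direction. Cdkn1c lies furthest to the left with both sets of cells, and Cdkn1a is at 0.730 in all cells and past the lower line in cells of 15000 to 30000 UMIs.

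The libraries differed in depth, with median β-like UMIs of 29488 in WT and 11897 in HFD, and some ratios moved with it. In cells of 15000 to 30000 UMIs (735 WT and 1791 HFD cells), Cdkn1a stood at 47.8 and 26.5 CPM, a ratio of 0.5545 (0.504 to 0.610). In this band 13.8% of 12222 genes were at least 1.5 times lower in HFD and 4.13% higher, while Cdkn1a and Cdkn1c were the 2 lower and Cdkn2a the 1 higher of 9 members tested. The Cdkn1a ratio was 0.536 in cells of 7500 to 15000 UMIs and 0.475 in cells over 30000 UMIs. In those bands 27.2% and 21.6% of all tested genes were lower by 1.5-fold and 9.52% and 5.18% higher. In the shallowest band, up to 7500 UMIs, the Cdkn1a ratio was 1.765 (0.991 to 3.465), from 12 WT and 232 HFD UMIs, and 28.9% of all tested genes were higher and 8.96% lower. The pooled ratio of 0.730 was thus nearer to 1 than in each of the 3 deeper bands. In 1 random draw of 2000 UMIs from every cell, which gives each cell the same weight, the Cdkn1a ratio was 0.9425 (0.774 to 1.15). It came from 137 WT and 396 HFD UMIs, and the interval held 1. Another draw of the same cells had a mean of 0.0846 Cdkn1a UMIs per cell in WT and 0.0630 in HFD. The mean over cells of CPM, an equal weight without a draw, gave a log2 ratio of -0.43, against -0.45 for all UMIs pooled. The thinned ratio therefore depended on the draw.

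Ccnd2 had ratios of 1.01, 0.793, 0.811 and 0.745 from the shallowest to the deepest band. Cdkn1b had ratios of 0.904, 0.732, 0.690 and 0.792, and Ccnd1 of 1.06, 1.12, 1.16 and 1.19. Cdkn1c had 24 WT and 5 HFD UMIs in cells of 15000 to 30000 UMIs, a ratio of 0.0954 (0.0284 to 0.255). It had 1 and 4 UMIs in cells up to 7500 UMIs, 0 and 12 from 7500 to 15000 UMIs, where the HFD level was 0.372 CPM and the limit of 0 WT UMIs 2.32 CPM, and 35 and 0 over 30000 UMIs, where the interval of the ratio (0 to 1.01) held 1. Over all cells up to 15000 UMIs, 1 WT and 16 HFD UMIs gave an interval of 0.118 to 31.9, so a lower Cdkn1c level in HFD was not detectable in these shallower cells. In the band from 15000 to 30000 UMIs, Cdkn2a had 11 and 49 UMIs, a ratio of 2.04 (1.05 to 4.35), and Cdkn2c a ratio of 1.01 (0.781 to 1.31).

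**Figure D4:**
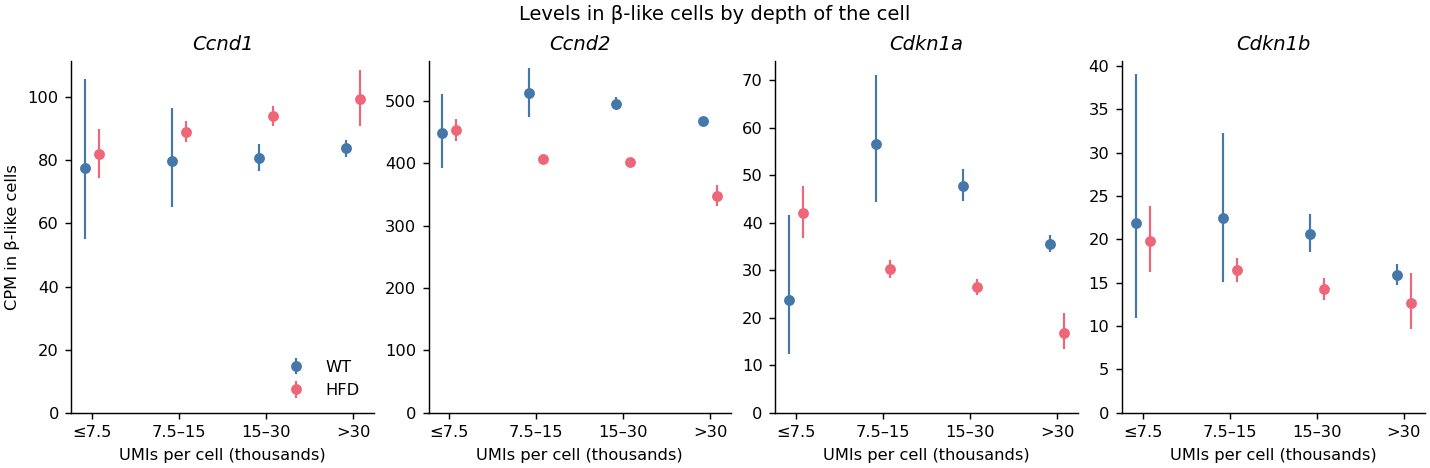
Level (CPM) of Ccnd1, Ccnd2, Cdkn1a and Cdkn1b in β-like cells of 4 ranges of UMIs per cell, blue for WT and red for HFD, with exact Poisson 95% intervals. Red lies below blue for Ccnd2, Cdkn1a and Cdkn1b in the 3 deeper ranges, and Cdkn1a in the shallowest range is 23.8 CPM in WT and 42.05 CPM in HFD.

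Cdkn1a had the most uneven counts from cell to cell among the members in WT β-like cells. In cells thinned to 2000 UMIs its variance to mean ratio was 2.02 in WT and 1.198 in HFD, against 0.990 to 1.14 for the other 8 members with any thinned WT count. The WT value leaned on very few cells of 1 random draw. In it 115 WT cells held 1 Cdkn1a UMI, 11 held 2 and 5 held 3 or more, with up to 12 in a cell. Before thinning, 18 WT cells and 2 HFD cells held at least 10 Cdkn1a UMIs, with up to 61 in a WT cell and 15 in an HFD cell, and the 18 WT cells carried 14.4% of all Cdkn1a UMIs of the class. Such a fixed count is reached more easily in deep cells, and 940 WT but 146 HFD β-like cells had over 30000 UMIs. Both HFD cells and 3 of the WT cells also held at least 10 endothelial, fibroblast and pericyte marker UMIs. The WT cell with 61 Cdkn1a UMIs held 0 of them. Without all cells that held at least 10 such marker UMIs, Cdkn1a had 37.4 and 28.1 CPM. Over all β-like cells, endothelial RNA in proportion to its markers would give 1.32 CPM in WT and 0.856 CPM in HFD. Pericyte RNA would give 1.45 and 0.433 CPM. In the remaining cells the endothelial estimate was 0.426 and 0.468 CPM, low by design because the same markers were used to leave cells out.

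β-like cells were split further into 7 clusters without the members. Cluster 0 (1305 WT and 194 HFD cells) was led by immediate early genes such as Fos, Dusp1 and Egr1, clusters 1, 2 and 6 were 98.5% to 99.1% HFD cells and clusters 1 and 6 were led by acinar enzyme genes such as Try5 and Ctrb1, and cluster 3 (326 WT and 334 HFD cells) was led by Ifit1, Mt2 and Mt1. Cluster 3 had Cdkn1a at 66.3 CPM (61.1 to 71.8) in WT and 50.9 CPM (42.6 to 60.3) in HFD, while cluster 0 had 33.7 CPM (32.05 to 35.45) and 59.0 CPM (48.4 to 71.2). Both HFD cells with at least 10 Cdkn1a UMIs were in cluster 0 and held 26 of its 108 HFD UMIs of Cdkn1a. Without the cells that held at least 10 marker UMIs of other types, cluster 0 had 31.4 CPM (29.8 to 33.1) in WT and 42.3 CPM (33.3 to 53) in HFD. These intervals narrowly failed to overlap, with the higher level in HFD, against the direction over all β-like cells. The HFD cells of cluster 0 were also shallower, with 1831572 UMIs over 194 cells against 45463612 over 1305 WT cells. Within cluster 3, Ccnd2 had 492 and 459 CPM. Among clusters 1, 2 and 6, Ccnd2 in HFD cells ranged from 349 CPM (341.5 to 356.5) in cluster 2 to 463 CPM (455 to 472) in cluster 6, a wider gap than that between the libraries. Ccnd1 ran in the other order, at 98.2 CPM (94.3 to 102) in cluster 2 and 78.9 CPM (75.3 to 82.7) in cluster 6. The clusters differ in library and depth, and their part in the HFD to WT ratios was not tested.

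D cyclin UMIs of the same thinned cell showed little relation. Thinned counts of Ccnd1 and Ccnd2 spread little more than random draws, so a weak relation would not be seen. Among thinned WT β-like cells, a Ccnd1 UMI was found in 14.0% of cells with a Ccnd2 UMI and in 14.1% of those without, and in HFD cells in 16.0% and 16.3%. Cdkn1a was found in 7.19% of WT cells with a Ccnd2 UMI and in 6.43% of those without.

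HFD to WT ratios were also taken in the 3 other classes with at least 50 cells in both libraries. In α-like cells Cdkn1a stood at 62.1 and 95.9 CPM, a ratio of 1.54 (1.10 to 2.18). In δ-like cells Ccnd1 stood at 158 and 91.4 CPM, a ratio of 0.580 (0.369 to 0.896), and Ccnd3 at 31.0 and 67.2 CPM, a ratio of 2.17 (1.05 to 4.73). In endothelial-like cells Cdkn1a had a ratio of 1.05 (0.953 to 1.15) from 1012 and 795 UMIs. The Ccnd2 ratio was 1.10 (0.984 to 1.24) in α-like, 0.836 (0.684 to 1.02) in δ-like and 1.21 (0.995 to 1.475) in endothelial-like cells, and all 3 intervals held 1. Ductal-like cells had fewer cells than this and stand here only because their Cdkn1a intervals did not overlap. Their Cdkn1a level was 1054 CPM (992 to 1119.5) in WT from 1071 UMIs and 1949 CPM (1773 to 2139) in HFD from 447 UMIs. Intervals were also apart for ductal-like Cdk4, at 151.6 (128.6 to 177.5) and 74.1 CPM (43.2 to 118.7). The same held for fibroblast-like Cdkn1c, at 425.5 (356 to 504.6) and 955.5 CPM (697 to 1278.5), and fibroblast-like Ccnd1, at 161 (119.6 to 212.5) and 21.2 CPM (0.538 to 118.3). Differences between classes were not tested.

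The genes around the members were read from lists of the pathway in β-like cells, against 4.16% higher and 8.2% lower among all genes. Of 8 E2F and DP factors 0 passed 1.5-fold, and E2f1 was farthest from 1, with 5.50 and 7.70 CPM. None of the 3 pocket proteins (Rb1, Rbl1 and Rbl2) passed, nor did the other INK4 genes, Cdkn2b (9.43 and 10.7 CPM) and Cdkn2d (14.3 and 12.2 CPM). Of the E cyclins and their kinase, Cdk2 passed as lower, with 27 and 21 UMIs and a ratio of 0.620 (0.333 to 1.14) that held 1. Of the 3 genes of the kinase activating complex 0 passed, with Cdk7 at 10.45 and 13.8 CPM. Of 7 genes known for degradation of p27 (such as the ubiquitin ligase subunit Skp2) or of D cyclins (Fbxo4, Fbxo31 and Ambra1), 0 passed. Of 4 polycomb genes, which are known to silence Cdkn2a, 0 passed, with Ezh2 at 2.66 and 1.92 CPM. Of 4 tested menin and FoxO regulators, Foxo1 was lower, at 27.01 and 17.9 CPM.

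Upstream growth inputs had 2 of 7 tested genes lower. Myc stood at 1.48 and 0.685 CPM, and Irs2, the insulin receptor substrate known for its part in β cell growth, at 72.3 and 36.55 CPM. Of 10 tested genes, p53 itself (Trp53) and its known targets, Btg2 was lower, at 313 and 100.4 CPM, and 0 were higher, with Gadd45a at 13.6 and 19.9 CPM. Btg2 is also an immediate early gene and was among the leading genes of the mostly WT cluster 0. Of 10 S phase genes 3 were lower, Mcm3, Mcm5 and Tyms, with Tyms at 4.79 and 3.18 CPM and Mcm3 at an interval that held 1 (0.335 to 1.01). Of 10 G2/M genes Ube2c was higher, from 35 to 97 UMIs, and Ccnb2 lower, from 24 to 14 UMIs. Of the imprinted neighbours of Cdkn1c, Kcnq1ot1 had a ratio of 1.04 (1.01 to 1.07).

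Genes with the most similar pattern to each member were sought over 17 combinations of class and library, by Pearson's r of log2(CPM + 5) among 11230 genes. They were Rab1a (r = 0.97) and Tjp1 (0.95) for Ccnd1, Nav2 and Ubqln2 (both 0.94) for Ccnd2, Mrpl4 (0.96) and Rdx (0.93) for Ccnd3, and Polr2j (0.94) and Sra1 (0.92) for Cdk4. Among the inhibitors they were Anxa3 (0.97) and Etv6 (0.96) for Cdkn1a, Eif3l and Prpf38b (both 0.95) for Cdkn1b, Gpx8 (0.96) and Htra1 (0.95) for Cdkn1c, and Rdh10 (0.91) and Tgfbr3 (0.87) for Cdkn2c. Points of the same library share its preparation and depth, so these values describe the pattern only. Cdk6 and Cdkn2a had too few UMIs for this.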

How the data were processed

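Isolated islets of 4 pooled mice per group were profiled with the 3-prime v3 kit of 10x Genomics after removal of dead cells. The deposited matrices hold unnormalized counts of UMIs for every gene in every barcode, which the authors made with Cell Ranger (v3.0.2) on mm10 (GRCm38), with 73843674 UMIs over 3895 WT barcodes and 94375138 over 8951 HFD barcodes. Barcodes with at least 500 genes and at most 20% mitochondrial UMIs were kept, with no maximum of UMIs. Because the automatic threshold of Scrublet called 1 WT and 0 HFD barcodes, the 121 WT and 641 HFD barcodes of highest score were left out as doublets.

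Cells of both libraries were clustered (scanpy v1.11.5, Leiden at resolution 1) on the 2000 most variable genes less hormones, members and listed genes, and clusters were named from marker lists. Clusters with markers of several classes were clustered again, a step added after the clusters were seen. UMIs were summed per class and library. Sums carry exact Poisson intervals, shares exact Clopper-Pearson intervals and ratios exact conditional intervals, all at 95%. A count of 0 was given the limit of 3 UMIs, and cells were thinned to 2000 UMIs for shares, spread and cycling. Carried-over RNA was estimated from the insulin share of a class, or from markers of another class in β-like cells. Gene positions are from GENCODE M21 (GRCm38). The script for ratios was tested on simulated data.

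The members and gene lists were chosen with earlier results of these data known. Named genes were all members, up to 3 genes per list farthest from a ratio of 1, and for each member with at least 200 UMIs the 2 genes most like it over classes with at least 100000 UMIs. The count of cycling cells, the clusters of β-like cells singled out, their levels without cells of other markers and the marker-based estimate of carried-over RNA were chosen after seeing the data. Alternatives changed the filters, doublets, resolution, depth, scaling (edgeR v4.0.16 TMM and DESeq2 v1.42.0 size factors) and the weight of cells.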

Additional observations from a re-analysis of the deposited data

Results flagged for a closer look

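Differences between cell classes in the direction of the HFD to WT ratio were looked for between β-like cells and the endothelial-like, α-like and δ-like classes, where the 95% intervals of both classes lay on opposite sides of 1. Cdkn1a had a ratio of 1.54 (1.10 to 2.18) in α-like cells, from 63 WT and 82 HFD UMIs, and 0.730 (0.689 to 0.773) in β-like cells. Ccnd1 had a ratio of 0.580 (0.369 to 0.896) in δ-like cells, from 61 and 34 UMIs, and 1.10 (1.06 to 1.14) in β-like cells. With 1 library per group the difference between classes was not tested in either case. Groups of 1 library are too small to look for a library that stands apart from its group.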

How the results depend on the processing

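Over all β-like cells 0 members passed 1.5-fold higher and 1 lower (Cdkn1c). With 15000 UMIs at most, these counts were 1 (Cdkn2c) and 0. They were 1 (Cdkn2a) and 2 (Cdkn1a and Cdkn1c) in cells of 15000 to 30000 UMIs. Among bands added after seeing the data, they were 2 (Ccnd3 and Cdkn1a) and 0 up to 7500 UMIs, 1 (Cdkn2c) and 1 (Cdkn1a) from 7500 to 15000 UMIs, and 1 (Cdkn2c) and 2 (Cdkn1a and Cdkn1c) over 30000 UMIs, where Cdkn1c had 0 HFD UMIs and its interval held 1. The lower count was 2 with a total that left out insulin and mitochondrial genes (Cdkn1a and Cdkn1c) and 2 as a mean over cells (Cdk6 and Cdkn1c). The cause was not tested. The Ccnd2 share of D cyclin UMIs was 83.99% in WT and 79.38% in HFD with 15000 UMIs at most, and 83.78% and 78.02% in cells of 15000 to 30000 UMIs.

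Cdkn1c was lower by over 1.5-fold in the 12 of 17 alternatives that gave it a log2 ratio from at least 20 UMIs, with ratios of 0.0954 to 0.341. With 15000 UMIs at most, in both bands below 15000 UMIs and in thinned cells it had fewer than 20 UMIs, and from 7500 to 15000 UMIs its counts were 0 in WT and 12 in HFD. Cdkn1a kept its direction in 16 of 17, with 1.765 in cells up to 7500 UMIs and 0.9425 in 1 random draw of cells thinned to 2000 UMIs. As a mean over cells of CPM its log2 ratio was -0.43, against -0.45 for all UMIs pooled. The total without insulin and mitochondrial genes moved every log2 ratio by -0.15, which turned Ccnd1 to 0.993 and Cdk4 to 0.959. No paired analysis was possible because each group was 1 library, and for the same reason no library could be left out. Depth limits Cdk6, Cdkn1c and Cdkn2a most, whose β-like values rest on 21 to 101 UMIs per library.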
